A study of Mus musculus with 16 samples.

Results

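The Bcl2 family genes described here were 10 genes taken by symbol from the 23356 genes of the expression tables, and all 10 were found. They were the pro-survival genes Mcl1, Bcl2 and Bcl2l1, the effectors Bax and Bak1, and the BH3-only genes Bid, Bad, Bcl2l11, Bbc3 and Pmaip1. Transcript levels were measured by mRNA-seq in NIH3T3 cells, a mouse embryonic fibroblast line, that stably expressed DD-sfGFP, a ligand-dependent destabilizing domain (DD) fused to superfolder GFP. The cells had been sorted by flow cytometry for high GFP. Untreated controls taken at 0 min were compared with cells exposed to bortezomib, an inhibitor of the proteasome, for 45, 135 or 405 min, with 4 libraries in each of the 4 groups. The controls carried DD-sfGFP as well. The study's general description has the DD-sfGFP cells kept in the stabilizing ligand, which is not restated for the bortezomib samples, and the dose of bortezomib was not given in the sources used here. Nothing in the labels says that replicates came from separate cultures, so p-values measure the spread between these libraries.

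Bcl2 family proteins control whether the outer membrane of the mitochondrion is opened. Bax and Bak1 form the pores through which cytochrome c leaves, the pro-survival members bind them and hold them in check, and the BH3-only members bind the pro-survival proteins or activate the effectors directly. The Mcl1 and Pmaip1 proteins are both short-lived and are degraded by the proteasome, and Pmaip1 binds Mcl1 in particular. The study used bortezomib to set proteasome inhibition beside other kinds of protein stress.

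No member passed the test at any time, but the test had little power at this spread between libraries. On simulated counts at the estimated dispersion of 0.625, it recovered 0 of 187 genes changed 4-fold at 405 min against control. With edgeR's quasi-likelihood test and Benjamini-Hochberg adjustment, 0 of the 4 members that had a count in every library (Mcl1, Bcl2, Bcl2l11 and Pmaip1) were called against control at 45, 135 or 405 min, and their adjusted p-values were 0.468 or more. At an unadjusted p under 0.05 the count of these members was also 0. The background was 0% called among the 5030 genes tested, and unadjusted p-values under 0.05 were reached by 12.1% of genes on the higher side and 0.775% on the lower side at 45 min, by 7.83% and 1.35% at 135 min, and by 14.5% and 1.51% at 405 min. The other 6 members were fitted without the filter on low counts among 22359 genes, where 0 of 10 members were called and the background was 0%, 0% and 0.00447% at the 3 times. DESeq2 called 330, 173 and 404 of the same 5030 genes at the 3 times, and no member was among those it called. Only 4 members were in that fit. Over all refitted comparisons, 22 member values had no adjusted p in DESeq2, so those members could not have been called. Mcl1 and Bcl2 at 45 min were among them, so DESeq2 gave no result for either gene at that time.

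The 16 libraries were of differing composition, and this bears on every member. In 9 libraries ribosomal protein genes held 0.398 to 1.21% of the fragments, and in the other 7 they held 4.25 to 9.42%. No control exceeded 4%. Of the treated libraries, replicates 1 and 2 did at 45 min and at 135 min, and replicates 1, 3 and 4 did at 405 min. The libraries with 4% or less held 570323 to 1469951 fragments. The libraries over 4% held 1385229 to 19930375 fragments. Olfactory receptor genes, which fibroblasts are not known to use, took 3.57 to 4.40% of the fragments in the first class and 0.00444 to 2.27% in the second, and the summed level of 8 fibroblast markers was 215 to 1555 CPM (counts scaled to 1e6 fragments) and 3415 to 20164 CPM respectively. Just inside the 4% limit was 405 min replicate 3 with 4.25%, and just outside it was control replicate 2 with 1.21%. Because no control library was over 4%, the time in bortezomib and the class cannot be told apart in a comparison of controls with libraries over 4%. Hspa1b, which encodes an inducible Hsp70 chaperone, was at 19.7 to 48.8 CPM in the controls and at 1292 to 10097 CPM at 405 min, without overlap, although its log2 change of 7.62 (SE 1.73) also missed the adjusted threshold in edgeR (adjusted p = 0.285).

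In the libraries with 4% or less, the median density of fragments on the Bcl2 family genes was about that on olfactory receptor genes. The density per kb of exon, relative to the receptor genes of the same library, had a median of 1.03 over the 90 values of 10 members in 9 libraries, and ranged from 0 to 4.26. It exceeded 2 in 23 of these values, and 11 of them were at 0 counts. Mcl1 at 1.18 to 3.96 and Bcl2 at 1.13 to 2.85 were above 1 in all 9 libraries, and every other member was below 1 in some library. Among the libraries over 4%, the median over the 10 members was 14.0 in 45 min replicate 2 and 14.4 in 405 min replicate 1. It was much lower in 135 min replicates 1 and 2, at 2.025 and 2.97, and in 405 min replicate 3, at 1.34. In 45 min replicate 1 and 405 min replicate 4 the receptor density was under 1 fragment per kb, and no ratio was formed. The part played by fragments that do not come from mature transcripts was not tested.

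**Figure D1:**
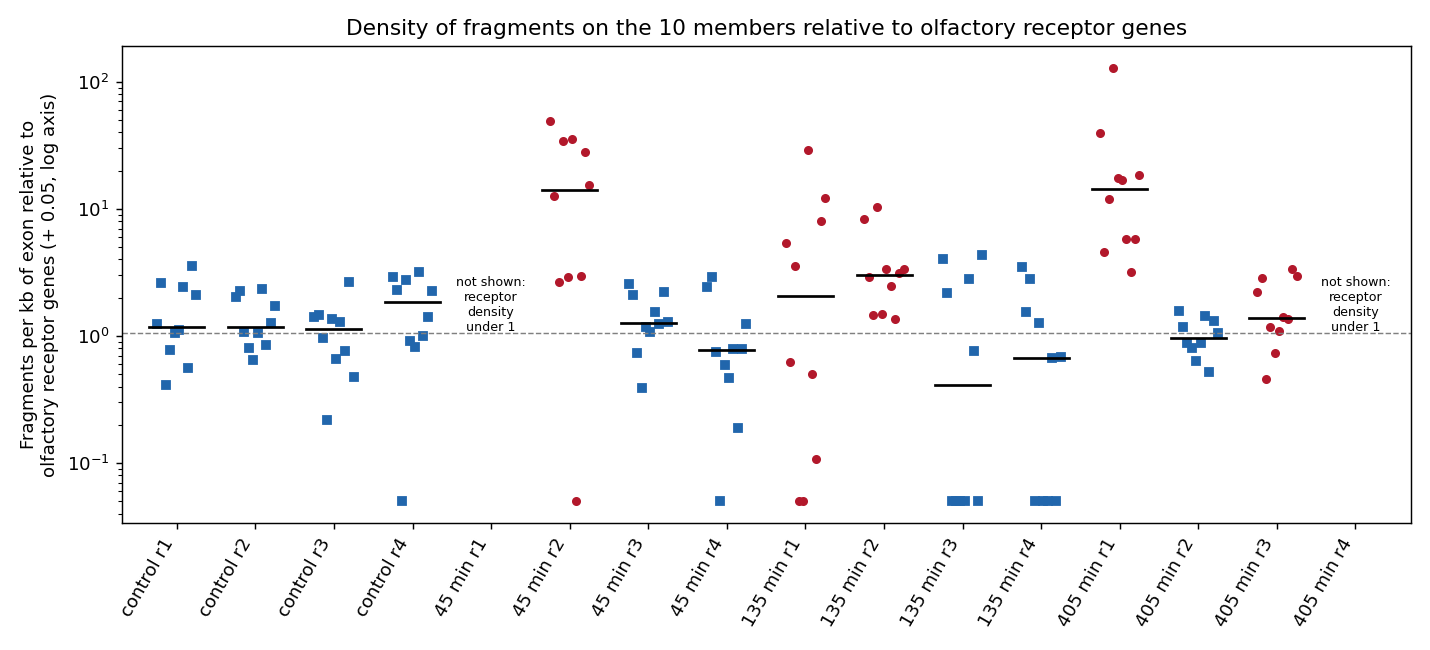
Fragments per kb of exon on each of the 10 members, divided by that of olfactory receptor genes in the same library (y axis, log scale, 0.05 added), for 16 libraries (x axis). Red circles are libraries over 4% ribosomal, blue squares those with 4% or less, and bars are medians over members. The blue values have a median of 1.03 and do not exceed 4.26, whereas the medians of 45 min replicate 2 and 405 min replicate 1 are 14.0 and 14.4. Among the other red libraries, the medians are 2.025 and 2.97 in 135 min replicates 1 and 2 and 1.34 in 405 min replicate 3.

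Mcl1 encodes the short-lived pro-survival protein to which Pmaip1 binds, and its gene lies on chromosome 3 (95462643 to 95467099, plus strand, mouse build NCBIM37). It was at 38.4, 55.7, 47.1 and 89.0 CPM in control replicates 1 to 4. At 45 min it was at 109, 70.1, 78.9 and 72.1 CPM, at 135 min at 13, 80.2, 105 and 97.7 CPM, and at 405 min at 91.5, 54.6, 39.7 and 97.1 CPM. All groups overlapped, and only 135 min replicate 1 was far below the rest. The fitted log2 fold changes against control were 0.79 (SE 0.57), 0.40 (SE 0.57) and 0.65 (SE 0.57) at 45, 135 and 405 min, with adjusted p-values of 0.565, 0.826 and 0.540 (edgeR). In the libraries with 4% or less, 135 min replicates 3 and 4 at 105 and 97.7 CPM were above the 4 controls. The share of all genes above in this way was not computed, and the fitted change there was 0.56 (SE 0.53). In the same class, 45 min replicates 3 and 4 at 78.9 and 72.1 CPM were within the range of the controls. So was 405 min replicate 2 at 54.6 CPM.

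Bcl2, the founding pro-survival member, had a larger share of the members' fragments where ribosomal protein genes had a small share. Its controls were at 172, 128, 99.9 and 145 CPM, and at 45 min it was at 18.5, 37.0, 132 and 178 CPM. At 135 min it was at 2.85, 57.6, 116 and 88.6 CPM, and at 405 min at 21.8, 83.2, 107 and 9.83 CPM. Every value under 60 CPM came from a library over 4%, and the groups overlapped at each time. The log2 fold change was −0.52 (SE 0.81) at 45 min, −1.04 (SE 0.82) at 135 min and −1.13 (SE 0.82) at 405 min, with adjusted p-values of 0.777, 0.644 and 0.468. With the class as a term in the fit, the value at 405 min was −0.01 (SE 0.88). Bcl2 made up 23.5 to 48.7% of the 10 members' fragments in the 9 libraries with 4% or less and 2.14 to 31.7% in the other 7.

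Bcl2l1, which encodes the pro-survival protein Bcl-xL, was spread too widely within groups for any order of the times. It ranged from 0 to 42.6 CPM in the controls, from 5.08 to 29.3 CPM at 45 min, from 0 to 108 CPM at 135 min and from 10.1 to 40.3 CPM at 405 min. A count of 0 in control replicate 4 allows up to 3.47 CPM at that depth, taking 3 counts as the limit for counting error alone.

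Bax, an effector, lies on chromosome 7 (52717065 to 52722268, minus strand, NCBIM37). Its controls were at 9.04, 8.13, 2.24 and 32.4 CPM, and at 45 min it was at 73.8, 18.7, 4.08 and 0 CPM. At 135 min it was at 38.6 CPM in replicate 2 and at 0 in the other 3 libraries, and at 405 min at 115, 10.4, 7.94 and 63.1 CPM. Values over 33 CPM came only from libraries over 4%, and every time overlapped the controls. The log2 fold change against control at 405 min was 3.54 (SE 1.73, unadjusted p = 0.051, adjusted p = 0.542, edgeR without the filter), the largest of any member at any time. With the class as a term it was −1.01 (SE 1.36), which is the opposite sign. Among libraries with 4% or less it was −0.19 (SE 2.50), but only 1 library at 405 min is in that class, and it is assumed there to vary like the other groups. Another library, 405 min replicate 1, moved the value of 3.54 to 2.23 when it was left out.

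At its depth, 135 min replicate 1 held 0 Bax fragments among 3154062, which allows up to 0.951 CPM, although its fellow replicate 2 was at 38.6 CPM. In that library 49.5% of all genes were at 0, against 5.76% in replicate 2. Bak1, the other effector, was at 0 in the same library and ranged from 11.6 to 31.4 CPM in the controls, 2.78 to 24.5 CPM at 45 min, 0 to 23.8 CPM at 135 min and 3.41 to 27.8 CPM at 405 min.

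Bid links death receptors to mitochondria once it has been cut by caspase-8, and it lies on chromosome 6 (120841948 to 120866871, minus strand, NCBIM37). It was at 21.3 to 35 CPM in the controls, 34.2, 51.6, 32.7 and 12.8 CPM at 45 min, 71.7, 33.0, 0 and 0 CPM at 135 min and 39.9, 29.9, 19.5 and 30.4 CPM at 405 min. At 135 min replicate 1 was above the controls, replicate 2 was within their range, and replicates 3 and 4 were below it at 0. The log2 fold change at 405 min was 1.32 (SE 1.24, adjusted p = 0.969), and with the class as a term it was −0.87.

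Bad, whose protein is kept inactive by phosphorylation, was at 24.7 to 55.5 CPM in the controls and 2.41 to 28.6 CPM at 405 min. Its fitted change at 405 min was −0.94 (SE 1.47), and it was at 0 in 45 min replicate 2 and 135 min replicate 4.

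Bcl2l11, the gene of the BH3-only protein Bim, was at 38.4, 52.2, 56.1 and 67.1 CPM in the controls. It was at 7.29, 9.50, 85.7 and 9.61 CPM at 45 min, 0.317, 29.3, 43.8 and 40.9 CPM at 135 min, and 16.7, 39.0, 54.9 and 11.5 CPM at 405 min. The treated libraries reached both above and below the controls at 45 min, and at the later times only part of them fell below. The fitted log2 changes were −0.86 (SE 0.89), −0.91 (SE 0.90) and −0.61 (SE 0.89), with adjusted p-values of 0.703, 0.734 and 0.690.

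Bbc3 encodes Puma, a BH3-only target of p53. It was the only member with any time wholly on 1 side of the controls. Its controls were at 65.5, 19.7, 51.6 and 24.3 CPM, and at 135 min it was at 11.1, 17.0, 0 and 0 CPM. The mean of log2(CPM + 1) was 1.94 ± 2.26 (SD, n = 4) at 135 min and 5.20 ± 0.81 (SD, n = 4) in the controls. The 2-sided exact permutation p was 0.0286, which is the smallest that 4 against 4 libraries can give. It was 1 of 10 members below without overlap, and 8.85% of all 22359 genes with any count were below in this comparison, so the share of members is near the background. At 45 and 405 min, 0 members were below without overlap, where 4.36 and 7.42% of genes were, and 0 were above at any of the 3 times, where 0.698, 0.729 and 2.68% of genes were. The fitted log2 change was −1.65 (SE 1.34, adjusted p = 1, edgeR without the filter). In the libraries that gave 0 counts, 47.5 and 32.8% of all genes were also at 0. Bbc3 was at 4.90, 22.9, 39.5 and 12.8 CPM at 45 min and at 7.63, 26, 34.7 and 3.56 CPM at 405 min, and both times overlapped the controls.

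Pmaip1 encodes Noxa, the BH3-only protein that binds Mcl1. It was at 50.8, 36.0, 11.2 and 52.0 CPM in the controls and at 3.26, 16.5, 29.3 and 27.2 CPM at 45 min. At 135 min it was at 22.2, 24.6, 85.9 and 13.6 CPM, and at 405 min at 32.2, 27.3, 40.4 and 29.2 CPM. The control and 405 min ranges overlapped, and the 4 libraries at 405 min were the least spread of the 4 groups, with log2(CPM + 1) of 5.04 ± 0.24 (SD, n = 4) against 5.06 ± 0.995 (SD, n = 4) in the controls. The log2 fold changes against control were −0.86 (SE 0.68), 0.00 (SE 0.66) and 0.07 (SE 0.67), with adjusted p-values of 0.604, 1 and 0.949.

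**Figure D2:**
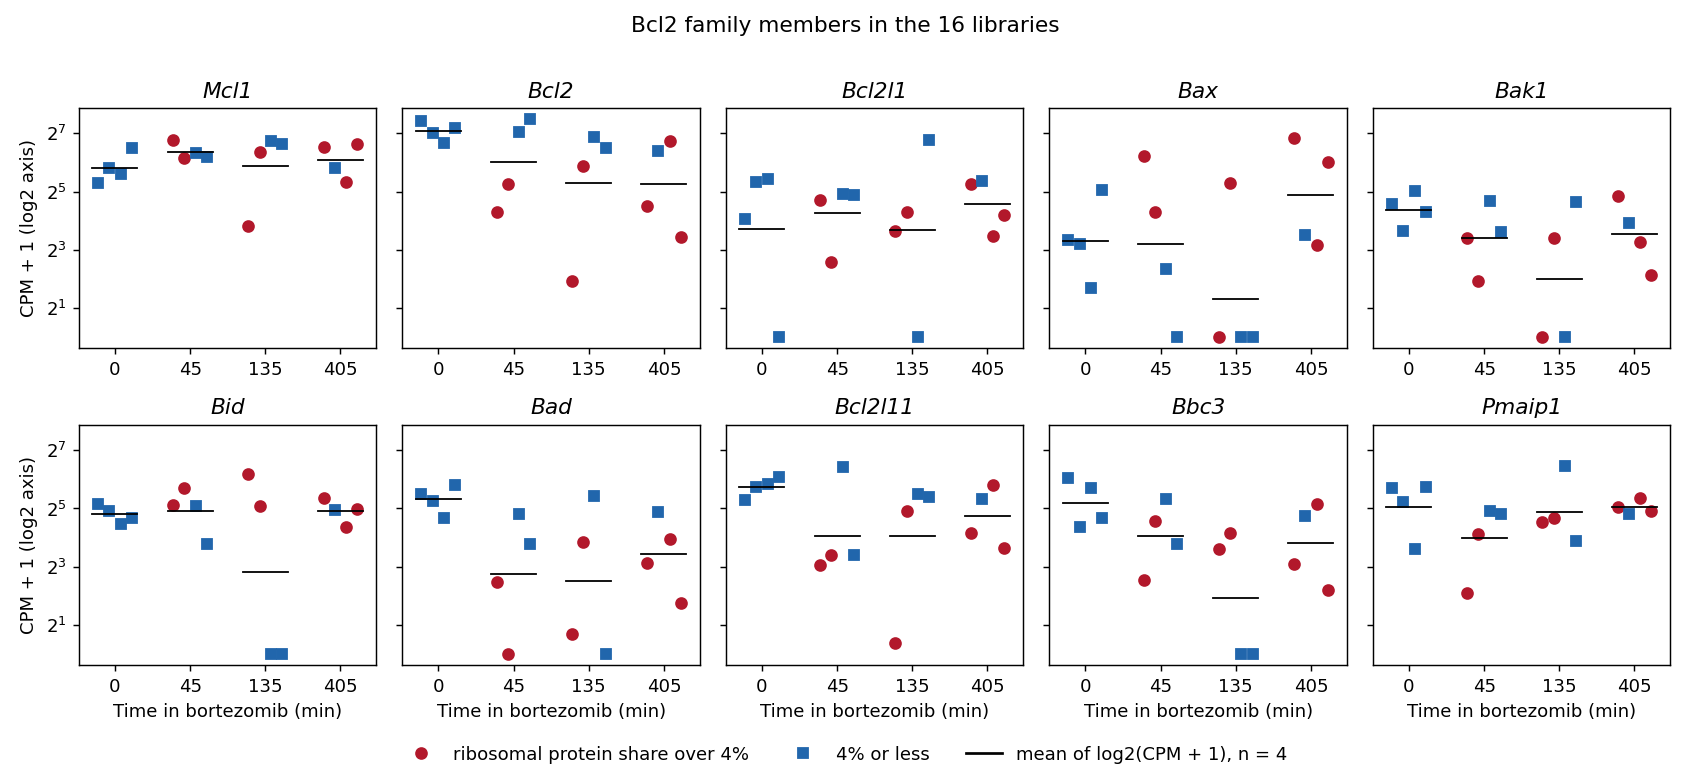
CPM + 1 (y axis, log2 scale) of each member in the 16 libraries by time in bortezomib (x axis, min), with 4 libraries per time. Red circles are libraries over 4% ribosomal, blue squares those with 4% or less, and bars are means of log2(CPM + 1). The red Bcl2 points are mostly below the blue ones and the red Bax points mostly above, and in Bbc3 all 4 points at 135 min are below the 4 controls.

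The course was then read in the libraries over 4% alone, where 45 and 135 min had 2 libraries each and 405 min had 3, and where no control was present. In this subset Pmaip1 was ordered by time without overlap, a pattern whose share over all genes was not computed. It was at 3.26 and 16.5 CPM at 45 min, at 22.2 and 24.6 CPM at 135 min, and at 32.2, 40.4 and 29.2 CPM at 405 min. The log2 fold change at 405 against 45 min was 1.76 (SE 0.84, unadjusted p = 0.0618, adjusted p = 0.691, edgeR), so the difference did not pass the test. The exact permutation p of log2(CPM + 1) was 0.200, and 3 against 2 libraries cannot give less than 0.100. The size depended on 45 min replicate 1, without which it was 0.99, and on 45 min replicate 2, without which it was 3.42.

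Mcl1 did not follow Pmaip1 in these libraries. It was at 109 and 70.1 CPM at 45 min, 13 and 80.2 CPM at 135 min, and 91.5, 39.7 and 97.1 CPM at 405 min. The groups overlapped, and the log2 change at 405 against 45 min was −0.19 (SE 0.74, adjusted p = 0.954). For every 100 Mcl1 fragments there were 3.002 and 23.6 Pmaip1 fragments at 45 min. The 135 min libraries had 171 and 30.7, and those at 405 min had 35.2, 102 and 30.1, a ratio that needs no scaling between libraries. The 171 came from 135 min replicate 1, where Mcl1 was at 13 CPM. In the controls, all with 4% or less, the ratio was 132, 64.6, 23.8 and 58.4, and the 405 min values lay within that range.

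Bcl2l11 was the other member above without overlap at 405 against 45 min, at 16.7, 54.9 and 11.5 CPM against 7.29 and 9.50 CPM. Its log2 change was 1.66 (SE 1.32, adjusted p = 0.744), and without 405 min replicate 3, the library nearest the 4% limit, it was 0.76. In all, 2 of 10 members were above without overlap and 0 below, where 8.88% of 22279 genes were above and 6.76% below. Pmaip1 alone was above at 135 against 45 min, where 18.5% of genes were, and at 405 against 135 min, where 2.56% were. No member was below in either, where 5.82 and 6.87% of genes were. Of the 7 members with a count in all 7 libraries, which excluded Bax, Bak1 and Bad, 0 were called in any of these 3 comparisons, and 0% of the 8605 genes tested were called. At 405 against 45 min none of the 7 had an unadjusted p under 0.05, while 3.01% of genes did on the higher side and 4.15% on the lower. Without the filter, Bax at 405 against 135 min had an unadjusted p of 0.0369 (log2 change 1.84, SE 0.88, adjusted p = 1), where 1.42% of 22279 genes were as low on the higher side.

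**Figure D3:**
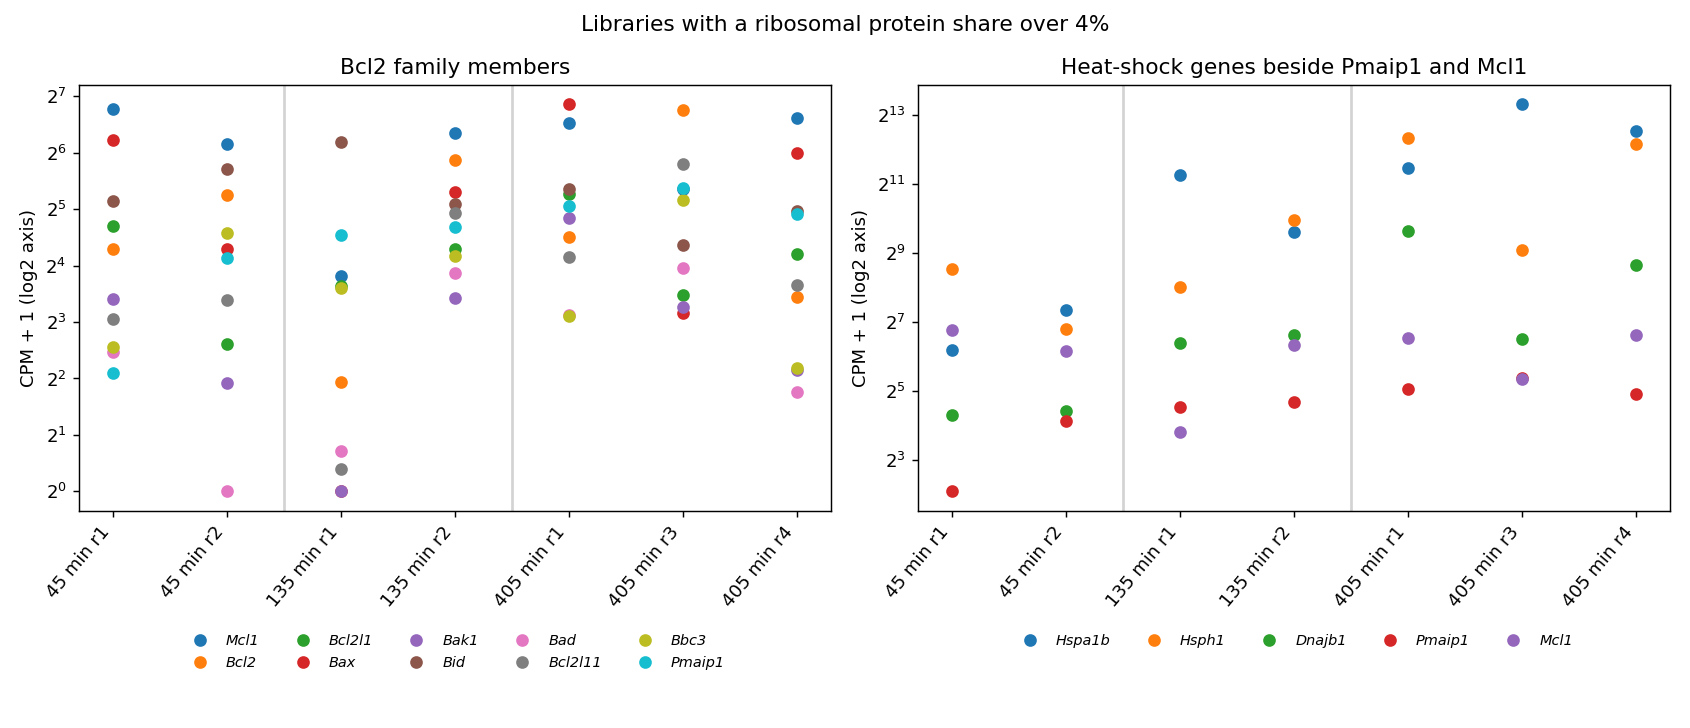
CPM + 1 (y axes, log2 scale) in the 7 libraries over 4% ribosomal, ordered by time on the x axes with grey lines between times. The left panel has the 10 members, and the right has 3 heat-shock genes with Pmaip1 and Mcl1. Pmaip1 is at 3.26 and 16.5 CPM at 45 min and at 29.2 to 40.4 CPM at 405 min, whereas Mcl1 has no order by time. The 40.4 CPM is 405 min replicate 3, the library nearest the 4% limit. The controls, which are not in this figure, were at 11.2 to 52.0 CPM for Pmaip1.

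The pair of libraries with the least receptor signal, 45 min replicate 1 and 405 min replicate 4, each with under 0.01% on olfactory receptor genes, held 18381116 and 19930375 fragments. This pair was chosen after its values were seen, and it compares 2 libraries rather than the times. Pmaip1 had 60 fragments in the first and 582 in the second, a ratio of CPM of 8.95 (95% exact interval 6.85 to 11.9, counting error only). Bcl2l11 followed with 134 and 230 fragments and a ratio of 1.58 (1.27 to 1.97). The other 8 members had ratios of 0.354 to 0.893, with Bak1 the lowest and Mcl1 the highest. Only for Bbc3, at 0.728 (0.525 to 1.004), did this counting interval include equal levels. The intervals leave out the spread between libraries, and the share of all genes whose interval excludes equal levels was not computed.

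Levels were compared between genes per length, by the deposited FPKM (fragments scaled by transcript length and library size). This scaling was not the same in every library. Bax had 73.8 CPM and 166 FPKM in 45 min replicate 1, but 115 CPM and 104 FPKM in 405 min replicate 1. The order below rests on the deposited values, and the effect of that difference on it was not tested. Over the 7 libraries over 4%, Bax had the highest median at 53.4 FPKM (range 0 to 166), followed by Mcl1 at 28.3 (4.44 to 35.8) and Bid at 19.98 (10.03 to 69.1). Bcl2l1, Pmaip1 and Bbc3 came next with medians of 9.78, 9.12 and 8.75 FPKM. Bak1 and Bad had 4.18 and 4.15 FPKM, and Bcl2 and Bcl2l11 were lowest with 3.45 and 2.89 FPKM. The ranges of neighbours in this order overlapped throughout. Across the 9 libraries with 4% or less, Bcl2 had a median of 22.1 FPKM and Bax 5.16 FPKM.

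Of the 10 members, 3 differed between the library classes, counted over fits with and without the filter, where many other genes also differed. In a fit of time and class together, Bax was 5.27 log2 units higher in the libraries over 4% (SE 1.25, adjusted p = 0.00367, edgeR without the filter) and Bid 3.02 higher (SE 1.0, adjusted p = 0.0459). Among all unfiltered genes 11.7% were also higher and 0.738% lower, and whether the members exceed that share was not tested. Bcl2 was lower by 1.48 log2 units (SE 0.60, adjusted p = 0.0447, with the filter), where 24.6% of the 5030 genes were lower and 28.7% higher, and it was 1 of the 4 members tested there, a share near the background. Of the other 7 members none passed, and Mcl1 (0.17, SE 0.49) and Pmaip1 (−0.47, SE 0.59) were among them. Fragment depth and receptor share move with this class, and their part was not tested.

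**Figure D4:**
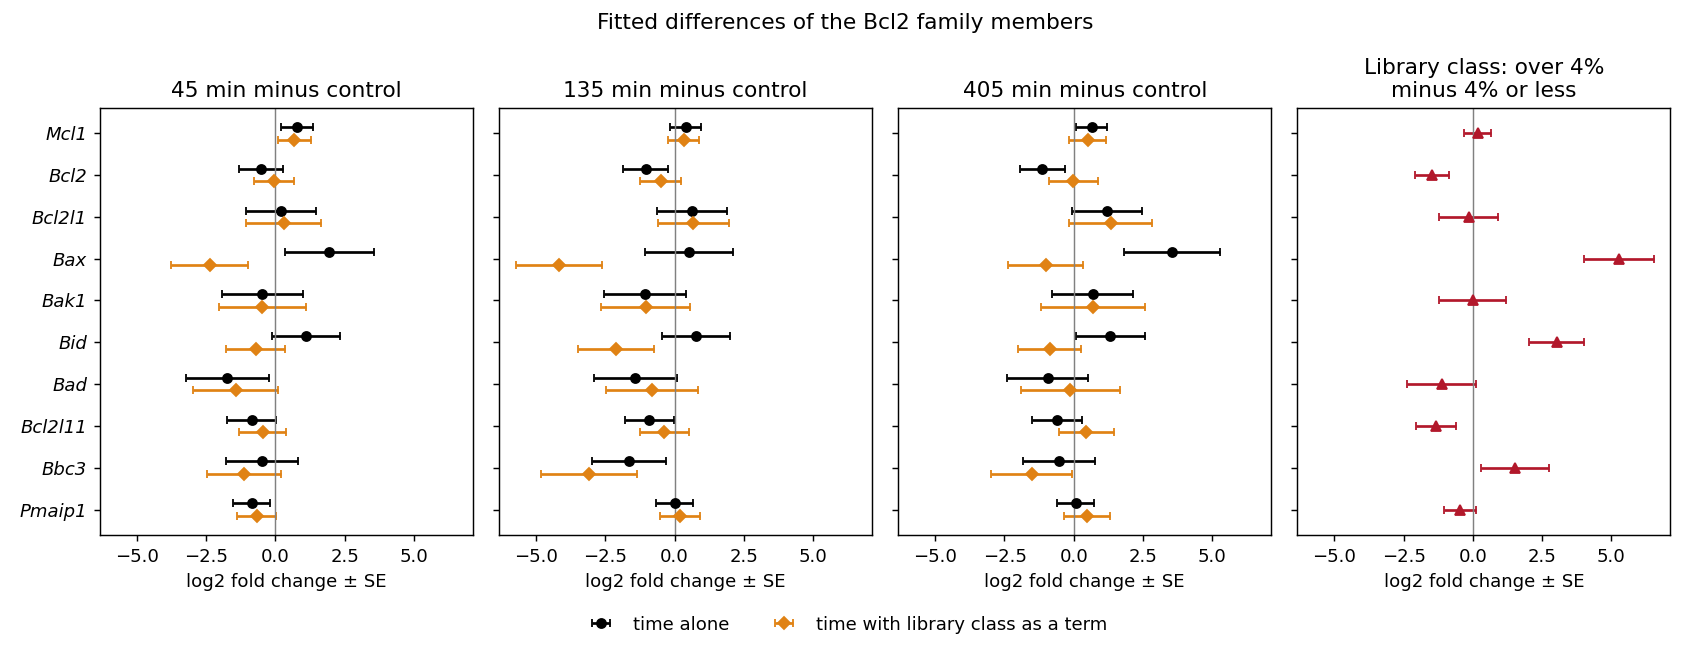
Fitted log2 fold changes with SE (x axes) of the 10 members (y axis) against control at 45, 135 and 405 min, and between the library classes in the last panel. Black circles are fits of time alone over 16 libraries and orange diamonds fits with the class as a term. Bax at 405 min goes from 3.54 to −1.01, and its class difference is 5.27.

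Genes of the wider pathway were taken by list. None was called in any comparison. Of 16 other Bcl2 family genes, 3 had a count in every library, and 7 did in the libraries over 4%, where Bnip3, a mitochondrial BH3-like protein involved in mitophagy, had the smallest p at 405 against 45 min (−1.54, SE 0.69, adjusted p = 0.691). Among 11 apoptosome and caspase genes, Cycs, the gene of cytochrome c, had 1.67 (SE 1.06, adjusted p = 0.413) at 405 min against control. For 7 genes of the IAPs (inhibitors of apoptosis) and their antagonists, Birc6 had 1.5 (SE 0.69, adjusted p = 0.302) against control, and Xiap had −1.43 (SE 0.57, adjusted p = 0.690) over 4%.

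Of 8 death receptor genes, 5 were tested against control at 405 min and 7 over 4%, with medians of 0.35 and 0.52 beside 0.11 and 0.14 over all genes. Ripk1, a kinase of the receptor complex, had 1.41 (SE 0.54, adjusted p = 0.285) against control. Tnfrsf10b, the mouse TRAIL receptor, had 2.18 (SE 0.68, unadjusted p = 0.0087, adjusted p = 0.690) at 405 against 45 min over 4%. Against control at 405 min it had only 0.185 (SE 0.63, adjusted p = 0.868, edgeR). It was at 191 to 280 CPM in the controls and at 173 to 268 CPM at 405 min. The 45 min libraries over 4% were low, at 62.9 and 38.5 CPM. Of 10 transcription factors known to act on Bcl2 family genes, 9 were tested over 4%, and 8 had a positive log2 change at 405 against 45 min, with a median of 1.5. Atf3, a stress-induced factor, had the smallest p, with a change of 5.24 (SE 0.80, unadjusted p = 5.63e-05, adjusted p = 0.484). In these libraries Atf3 was at 2.67 and 5.40 CPM at 45 min, 35.8 and 31.9 CPM at 135 min, and 177, 83.7 and 185 CPM at 405 min. The controls were at 13.9 to 64.8 CPM, above these 45 min values. In 405 min replicate 2, with 4% or less, it was at 32.5 CPM, within the controls. Against control, Jun had 2.33 (SE 0.77) and Atf4, which acts on Pmaip1 in other cells, 3.30 (SE 1.23), both with adjusted p = 0.285. At 405 against 45 min over 4%, Atf4 had 0.02 (SE 0.69), and in 405 min replicate 2, the library with 4% or less, it was at 40.3 CPM, within the controls' 24.9 to 46.3 CPM. Among 5 genes for the turnover of the Mcl1 protein, the ubiquitin ligase Huwe1 had 2.87 (SE 1.12, adjusted p = 0.285) against control. Of these 5, 2 were positive at 405 min against control (median −0.70, beside 0.11 over all genes), and 2 were at 405 against 45 min over all libraries (median −0.20, beside −0.03). All 5 were positive in the latter comparison over 4% (median 0.84, beside 0.14). For scale, Hspa1b, Hsph1 and Dnajb1 had 5.74, 3.89 and 4.44 in that comparison and also failed the adjustment, at 0.672 to 0.690.

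The genes most like Mcl1 across the 7 libraries over 4%, by the root mean square difference of log2 levels about their own means among 7133 genes, were Dcaf13 (0.170), Hipk3 (0.199) and Smarcb1 (0.207), where the median gene had 1.16. For Pmaip1 they were Zfp408 (0.425), Ercc8 (0.436) and Lonrf1 (0.510), with a median of 1.26. These libraries share the same depth and composition differences.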

How the data were processed

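Total RNA of 16 libraries was prepared with a NuGEN kit per the labels. Per the study's methods the authors aligned reads to the mouse genome mm9 and analysed them against RefSeq on DNAnexus, whereas the submitters' processing notes name mm10. The deposited tables hold estimated counts of fragments per gene, whole for 97.9 to 99.4% of genes (tolerance 1e-09), and FPKM values, made by the authors. The rounded counts were analysed with edgeR 4.0.16 (TMM, quasi-likelihood test, 1 mean per group over 16 libraries), DESeq2 1.42.0 and scipy 1.17.1, with genes kept at 1 count or more in every library and an adjusted p of 0.05. In 1 library 27 symbols turned to dates were restored. Gene positions are those of GENCODE on NCBIM37, and receptor densities leave out the 5% densest receptor genes. On simulated counts for 405 min against control, 200 of 200 changed genes were recovered at a dispersion of 0.05 and 0 of 187 at the estimated 0.625. For 405 against 45 min over 4%, 198 of 199 were recovered at 0.05 and 0 of 199 at the estimated 0.466. No libraries were identical over 120 pairs. Same-numbered libraries correlated at 0.513 to 0.557 in all 4 pairs of 45 and 135 min, where replicates 1 and 2 are also over 4% and 3 and 4 are not, but from −0.761 to 0.611 over all 24 pairs. The replicate number was therefore a block only in an alternative, which called 0 genes at 135 against 45 min as well. The members, gene lists and tests were chosen with earlier results of these data known. All 10 members were named, and from each list the genes past the threshold or, with none, up to 2 of smallest p. Alternatives tried were other filters, size factors, tests, a replicate block, class terms, thinning and leaving out each library. A result for 1 listed gene is not reported here.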

Additional observations from a re-analysis of the deposited data

Results flagged for a closer look

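Within the 40 groups of 4 libraries formed by 10 members and 4 groups, 5 had a library far from the other 3. This used Dixon's test at its 95% limit, where chance gives about 2 for normally spread values. The treated groups mix the library classes and some values are at 0, so that number is only a rough guide. On the log2(CPM + 1) scale, Mcl1 at 135 min was at 3.81 in replicate 1 and at 6.34 to 6.73 in the others, and Bcl2l11 at 135 min was at 0.40 in the same replicate and at 4.92 to 5.49 in the others. Bcl2l1 at 45 min was at 2.60 in replicate 2 and at 4.70 to 4.92 in the others. Bax at 135 min was at 5.31 in replicate 2 and at 0 in the others, a tie that by itself brings the flag. Bcl2l11 at 45 min was at 6.44 in replicate 3 and at 3.05 to 3.41 in the others.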

How the results depend on the processing

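No member crossed the threshold under any alternative: of 574 refitted values 0 did, 510 kept their sign and 64 reversed, and 22 had no adjusted p in DESeq2 and were left out. DESeq2 called 330, 173 and 404 genes against control at 45, 135 and 405 min, and 5 at 405 against 45 min; the exact test called 12 at 405 min and 1 at 405 against 45 min, filterByExpr 1 at 405 min, 1 at 405 against 135 min and 2 at 405 against 45 min, no filter 1, 2 and 2, and the libraries with 4% or less 2 at 405 min. Over 4%, no filter called 3 (135 against 45), 8 (405 against 135) and 16 (405 against 45), DESeq2 3 and 62 at the first and last, and filterByExpr 4 and 6 at the second and last. Leaving out any library called 0 genes in all 9 comparisons. The replicate block called 0 genes in every comparison, with 258, 217 and 860 genes at an unadjusted p under 0.05 against control, and 48 at 135 against 45 min, and 5 of 16 libraries correlated best with one of their own number.

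The following log2 changes reversed. With the class as a term, Bax at 45, 135 and 405 min became −2.38, −4.17 and −1.01, Bid −0.71, −2.12 and −0.87, Bcl2l11 at 405 min 0.46 and Pmaip1 at 135 min 0.20. With only libraries at 4% or less, where 405 min has 1 library that is assumed to vary like the others, Bax became −2.41, −6.50 and −0.19, Bid at 45 and 135 min −0.26 and −7.63 (135 min at 0 counts for both), Bcl2 at 45 min 0.19, Pmaip1 at 135 and 405 min 0.21 and −0.45, and Mcl1 and Bak1 at 405 min −0.07 and −0.48. With RLE factors, which shift the median gene at 405 min from 0.107 to −0.0165, Bcl2l1 at 45 min became −0.03, Bax at 135 min −0.31, Bak1 at 405 min −0.54 and Pmaip1 at 135 and 405 min 0.00 and −0.06. With the replicate block, Bcl2l1 at 45 min became −0.07, Bax and Bid at 135 min −0.99 and −0.44, Pmaip1 at 405 min −0.02, and over 4% Mcl1 and Bbc3 0.23 and 0.00. DESeq2 gave Bax at 135 min −0.33, and thinning gave −0.34, with Bak1 and Pmaip1 at 405 min −0.18 and −0.33. With filterByExpr or no filter, Pmaip1 at 135 min became 0.15 and 0.16, and Bbc3 over 4% −0.28 and −0.29. A limit of 5% ribosomal, chosen after seeing the data, made Mcl1, Bcl2 and Bbc3 at 405 against 45 min 0.13, −0.84 and −1.34. The cause was not tested.

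Leaving out 1 library gave ranges of −0.20 to 0.59 for Bcl2l1 at 45 min, −0.47 to 1.04 for Bcl2l1, −7.88 to 1.41 for Bax, −0.44 to 1.19 for Bid and −0.53 to 0.23 for Pmaip1 at 135 min, and −0.82 to 1.21 for Bak1 and −0.23 to 0.22 for Pmaip1 at 405 min. Over 4% at 405 against 45 min they were −0.55 to 0.13 for Mcl1, −0.84 to 1.28 for Bcl2, −0.13 to 2.05 for Bcl2l1, −0.33 to 1.84 for Bax, −0.26 to 2.01 for Bak1 and −1.34 to 1.59 for Bbc3. Counts between 0 and 152 per member in the controls limit what could be seen.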
